A study of Caenorhabditis elegans with 15 samples.

Results

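The events described here are introns with 2 alternative 3’ splice sites that lie exactly 6 nt apart. They were taken from the alternative 3’ events that had a percent spliced in (PSI) in each of the 15 libraries, and the membership rule used only the distance between the sites. Of 12325 such events, 1081 had this distance, which made 6 nt the most frequent of all distances up to 18 nt. A further 296 events with sites 6 nt apart lacked a PSI in at least 1 library and were not used. Throughout, PSI is the use of the upstream site, in percent of the use of both sites, so that a higher PSI means that more transcripts kept the 6 nt between the sites in the exon. A change in PSI is given in percentage points. The tables hold no read counts, and the depth of each PSI value is therefore unknown.

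The study asked which splice sites of native genes change in C. elegans strains that carry suppressor alleles of KIN17, the product of dxbp-1, or of PRCC, the product of prcc-1. The KIN17(K23N) strain carried unc-73(e936az30) dxbp-1(az121), and the KIN17(M107I) strain carried unc-73(az63) dxbp-1(az52). The PRCC(I371F) strain carried prcc-1(az122), and the PRCC(null) strain carried prcc-1(gk5556), which removes the coding region. All 4 mutant strains and the control carried smg-4(az152), a CRISPR-made null allele that disables nonsense-mediated decay, and the control, called smg-4 control, carried this allele alone. The unc-73 alleles of both KIN17 strains were not in the control. An effect of the unc-73 allele and of the KIN17 allele therefore cannot be told apart in the comparisons of these strains with the control. Poly(A) RNA came from whole worms of mixed stages grown at 20 C on OP50 bacteria, with 3 RNA isolations per strain and 1 library from each. Whether the isolations came from separate cultures is not stated in the labels, so the p-values below measure the spread between RNA isolations. In such bulk samples, fewer cells of a type and less RNA per cell cannot be told apart.

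At the end of an intron, the spliceosome joins the upstream exon to the base after an AG. The U2AF heterodimer binds the pyrimidine tract and the AG, and in C. elegans the consensus is short and rich in U before the final CAG. Where a further AG lies a few bases before this consensus, it can act as a competing acceptor, and a step of a multiple of 3 bases leaves the reading frame unchanged. With 6 nt between the sites, use of the upstream site adds 2 codons to a coding transcript. In C. elegans, upstream acceptors with a poor match to the consensus are known to be used more in the germline than in somatic cells.

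The sequences of both sites were at hand for 53 members, those that the study listed as changed in at least 1 mutant strain, and 7 of them are shown because their changes are described below. Each is the genomic sense strand, 5’ to 3’, from 6 bases before the upstream AG to the downstream AG, and the capitals mark both AGs.
lst-6: cgaaaaAGctttAG
znf-598: tattaaAGtttcAG
dab-1: tataaaAGttccAG
panl-3: ccaaaaAGttccAG
ntl-4: attcgcAGttctAG
pdzd-8: ctgattAGtttcAG
lst-4: cttgctAGcgtcAG
In lst-6, znf-598, dab-1 and panl-3 the upstream AG followed a run of A, while in ntl-4, pdzd-8 and lst-4 it followed C or T. Among all 53, the downstream site ended in CAG in 48 members (90.6%) and the upstream site in 8 members (15.1%). The downstream site ended in TTTCAG in 22 members, in TTCCAG in 12 and in CTTCAG in 6. The upstream site ended in AAG in 33 members, of which 24 read AAAG and 15 read AAAAG. Of the 4 bases before the AG, A made up 49.5% at the upstream site and 2.83% at the downstream site. T made up 23.6% there at the upstream site and 61.8% at the downstream site, and 43 of the 53 members had fewer T before the upstream AG, 7 an equal number and 3 more. These motifs were read on the sense strand at the ends of the 2 introns only, and AAG, AAAG and AAAAG overlap one another. The study chose the 53 for their change in these libraries, and the sequence of the other members was not analysed here, so the counts describe the changed members and not the distance class.

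The level of upstream use over the 1081 members was higher in each mutant strain than in the control on average. The median PSI per library was 46.2, 47.5 and 40.8% in KIN17(K23N) and 39.8, 41.0 and 37.9% in KIN17(M107I). It was 31.6, 39.3 and 33.8% in PRCC(I371F) and 39.8, 39.3 and 40.3% in PRCC(null). In the smg-4 control it was 33.3, 26.2 and 31.3%. All libraries of both KIN17 strains and of PRCC(null) lay above all control libraries, while 1 library of PRCC(I371F) lay within the control range. KIN17(K23N) overlapped KIN17(M107I) and lay wholly above PRCC(null), and the libraries of KIN17(M107I) and PRCC(null) overlapped each other. The second control library was the lowest of all 15, and it also had the largest share of members read as exactly 0 or 100%, 32.9% against 21.6 to 29.3% in the others. The means of the 3 medians were 44.8 ± 3.57% in KIN17(K23N) and 39.6 ± 1.59% in KIN17(M107I) for the KIN17 alleles, and for the PRCC alleles 34.9 ± 3.99% in PRCC(I371F) and 39.8 ± 0.506% in PRCC(null), against 30.3 ± 3.67% in the smg-4 control (SD, n = 3 each).

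**Figure D1:**
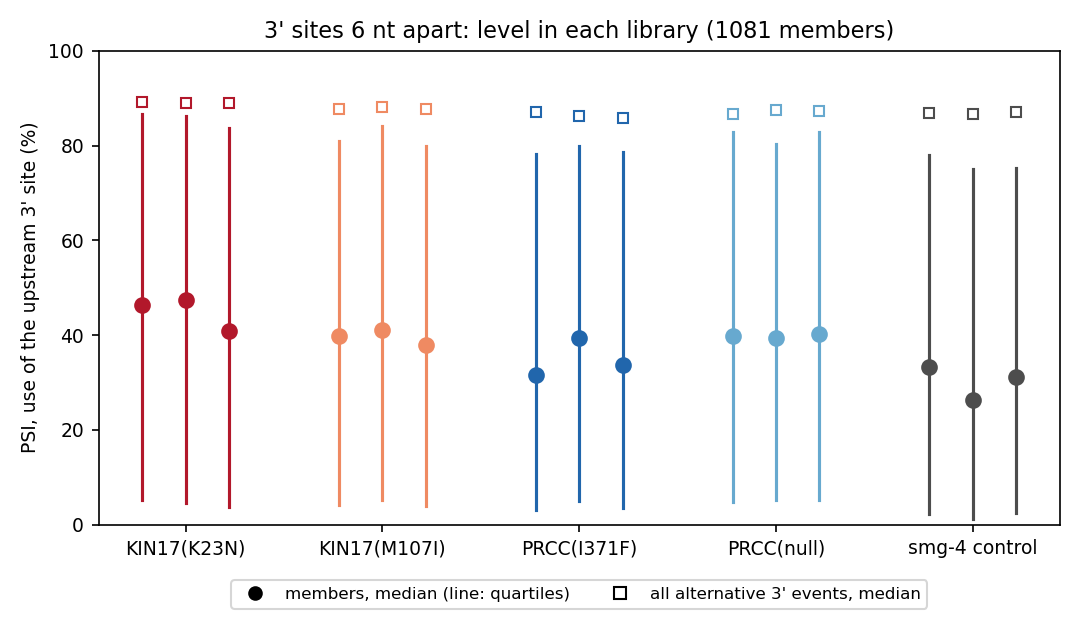
Median PSI of the 1081 members (filled circles, with a line over the middle 50% of members) and of all 12325 alternative 3’ events (open squares), in percent, in each of the 3 libraries per strain. The members’ medians lie between 26.2 and 47.5%, and those of all events between 85.7 and 89.2% in every library.

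Over all 12325 alternative 3’ events the median PSI was 85.7 to 89.2% per library, above that of the members in each library. The upstream site was the more used one, with a mean PSI over 50%, in 514 members in KIN17(K23N) and 467 in KIN17(M107I). The corresponding number was 422 in PRCC(I371F) and 471 in PRCC(null), against 398 in the smg-4 control. Many members hardly varied. Their mean PSI over the 15 libraries was under 5% in 257 members and over 95% in 192. Between libraries of the same strain the members differed by 4.59 to 7.54 percentage points on average (15 pairs), and between libraries of different strains by 4.98 to 12.8 (90 pairs).

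KIN17(K23N) against the smg-4 control compared the strain with the first KIN17 allele, which also carried an unc-73 allele, and gave the most changed members. limma, fitted to the transformed PSI of all 12325 events, called 99 of the 1081 members (9.16%) at an adjusted p under 0.05 and an average change over 20 points, where it called 1.57% of all events (1.55% upward and 0.0243% downward). Of these, 98 used the upstream site more in KIN17(K23N) and 1 used it less. The study’s own rule, under which all 9 pairwise differences exceed 15 points in the same direction and average over 20, passed 64 members, 63 of them upward, where 1.2% of all events passed (1.12% upward and 0.0811% downward). Both criteria held for 58 members, and the share of all events that met both was not computed for this or the other strains. The KIN17(K23N) libraries lay wholly above the control libraries in 328 members and wholly below in 13, where the share of all events was 10.1% above and 2.47% below. The median change of the members was 1.77 points, beside 0.0495 over all events. With only the 6 libraries compared in the fit, the limma count was 22, 21 of them among the 99. It was 40 without KIN17(K23N) replicate 1, 44 without replicate 2 and 51 without control replicate 2. The count by the rule was 126 without KIN17(K23N) replicate 3 and 110 without control replicate 1.

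The largest change that met both criteria in a named gene was in panl-3, which encodes the C. elegans homolog of PAN3, a subunit of the PAN2–PAN3 poly(A) nuclease. This member lies on the plus strand at chrIII, with the upstream intron ending at base 9820072 and the downstream one at 9820078 (WS220/ce10). Its PSI was 83.8, 79.4 and 73.6% in KIN17(K23N), 72.9, 67.5 and 62.4% in KIN17(M107I), 47.4, 65.0 and 48.8% in PRCC(I371F), and 67.1, 64.7 and 67.1% in PRCC(null), against 40.5, 28.2 and 32.7% in the smg-4 control. All 12 mutant libraries lay above the 3 control libraries, and those of KIN17(K23N) were the highest. The change in KIN17(K23N) was 45.1 points (2.84 ± 0.34 on the log2 odds scale, SE, limma adjusted p = 0.00312). In PRCC(null) it was 32.5 points (adjusted p = 0.0243), and in KIN17(M107I) it was 33.8 points and passed the rule but not limma (adjusted p = 0.0508). In PRCC(I371F) it was 19.9 points (adjusted p = 0.298). The study also assayed panl-3 by RT-PCR in synchronized larvae and adults of the control and both KIN17 strains. The study reported no difference among these strains at either stage, while in all of them larvae preferred the downstream site and adults used both sites. The libraries here came from mixed stages. The study proposes that the 3’ changes in KIN17(K23N) may be indirect, through the amount of germline in mixed-stage cultures. This was not tested here. The call in KIN17(K23N) held without each library in turn, with an adjusted p of at most 0.0166, while that in PRCC(null) was lost without any 1 of the 3 PRCC(null) libraries, control replicate 2 or control replicate 3 (adjusted p = 0.0548 to 0.0808).

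A change of like size was measured in pdzd-8, whose mammalian homolog is a lipid transfer protein at contacts of the endoplasmic reticulum. Its PSI was 79.9, 77.8 and 66.4% in KIN17(K23N), 62.1, 60.9 and 62.0% in KIN17(M107I), 51.9, 55.4 and 40.0% in PRCC(I371F), and 64.4, 63.4 and 61.2% in PRCC(null), against 33.7, 30.8 and 26% in the smg-4 control. No mutant library reached down to the control range. The changes of 44.5 points in KIN17(K23N), 31.5 in KIN17(M107I) and 32.8 in PRCC(null) were all called (limma adjusted p = 0.00267, 0.0407 and 0.0133), and the 18.9 points in PRCC(I371F) were not (adjusted p = 0.222). The calls in KIN17(K23N) and PRCC(null) held without each library in turn, with an adjusted p of at most 0.0134 and 0.0449, and that in KIN17(M107I) was lost in 10 of these 15 fits, with an adjusted p of up to 0.126 without its replicate 1.

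The member in lst-6, a gene named as a target of lateral signaling, had 60.7, 70.2 and 70.5% in KIN17(K23N) against 21.4, 26.2 and 34.4% in the smg-4 control, a change of 39.8 points (limma adjusted p = 0.00312). It was also 1 of the 3 members that passed the rule upward in PRCC(I371F), with 52.4, 50 and 50%, although limma gave an adjusted p of 0.0748 there. In lst-4, which encodes a sorting nexin of the SNX9 family, PSI was 78.5, 85.4 and 77.0% in KIN17(K23N) against 55.3, 38.8 and 36.1% in the smg-4 control (36.9 points, adjusted p = 0.00681). These groups did not overlap in either gene. In ntl-4, the homolog of the CNOT4 subunit of the CCR4–NOT complex, PSI was 74.0, 77.8 and 69.2% in KIN17(K23N) and 61.5, 60.5 and 66.9% in PRCC(null), against 42.8, 27.2 and 42.8% in the smg-4 control. The change was 36.1 points in KIN17(K23N) (adjusted p = 0.00416) and 25.4 in PRCC(null) (adjusted p = 0.0454). The KIN17(K23N) calls of lst-6, lst-4 and ntl-4 held without each library in turn, with an adjusted p of at most 0.0166, 0.0378 and 0.0219, and the PRCC(null) call of ntl-4 was lost in 13 of the 15 fits, with an adjusted p of up to 0.13 without PRCC(null) replicate 3 or control replicate 2. With only the 6 libraries of the comparison in the fit, the KIN17(K23N) calls of lst-6, lst-4, ntl-4 and dab-1 were lost (adjusted p = 0.0548, 0.091, 0.0817 and 0.0701), as were those of the next 2 members.

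A pair of members without a gene name had large changes and a wide spread in the control. The one at chrI:13873120-13875763 had 88.9, 85.2 and 78.9% in KIN17(K23N) against 57.1, 20.0 and 33.3% in the smg-4 control (47.5 points, adjusted p = 0.0138). The one at chrIII:7709211-7709393 had 93.0, 93.3 and 83.0% in KIN17(K23N) against 66.7, 33.3 and 46.2% in the smg-4 control (41.0 points, adjusted p = 0.0126). The groups did not overlap, but the control libraries of each differed among themselves by more than 30 points. Both calls were lost without KIN17(K23N) replicate 1 or 2 or control replicate 2, with an adjusted p of 0.0656, 0.0556 and 0.0523 on chromosome I and 0.0596, 0.0573 and 0.0523 on chromosome III.

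**Figure D2:**
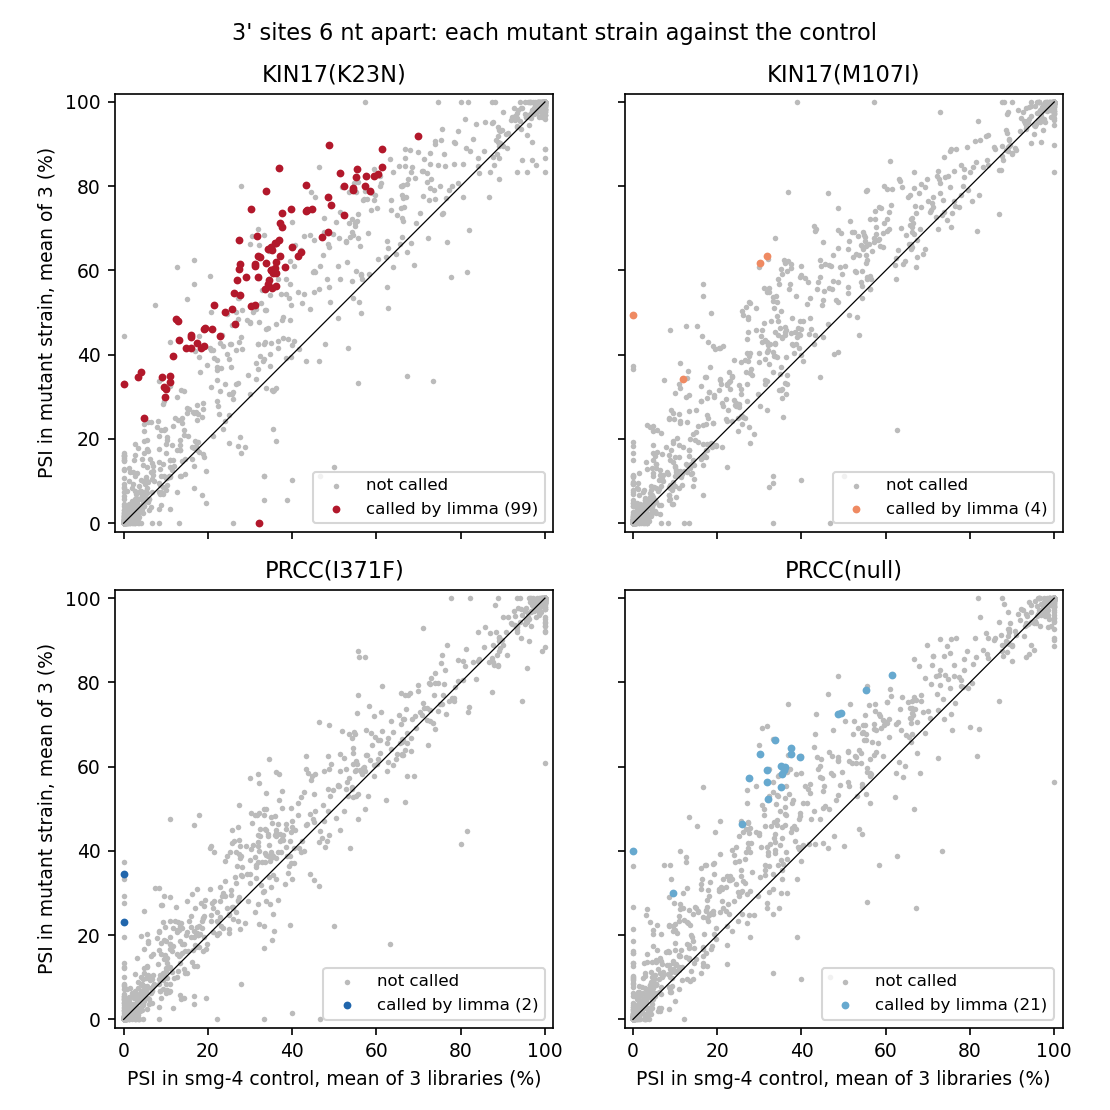
Mean PSI of each of the 1081 members in the 4 mutant strains (vertical axes) against the smg-4 control (horizontal axes), in percent over 3 libraries each; coloured points are members called by limma. Called points lie above the diagonal, with 1 below it in KIN17(K23N). They number 99 in KIN17(K23N) and 4 in KIN17(M107I), and 2 and 21 in the panels of PRCC(I371F) and PRCC(null).

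The member that used the upstream site less in KIN17(K23N) lies at chrX:17209060-17209242. Its PSI was read as 0 in all 3 KIN17(K23N) libraries, and was 12.5, 0 and 13.0% in KIN17(M107I), 30, 15.4 and 22.2% in PRCC(I371F), and 46.2, 20.0 and 42.9% in PRCC(null), against 33.3, 33.3 and 30% in the smg-4 control. It fell by 32.2 points in KIN17(K23N) (limma adjusted p = 0.00681). Both KIN17 strains lay below the control range, while PRCC(null) overlapped it. The change of -23.7 points in KIN17(M107I) passed the rule but not limma (adjusted p = 0.304). Its call held without each of the 15 libraries in turn, with an adjusted p of at most 0.0319.

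KIN17(M107I) against the smg-4 control compared the strain with the second KIN17 allele, which also carried an unc-73 allele. Here limma called 4 members, all upward, where it called 0.0811% of all events (0.073% upward and 0.00811% downward). The rule passed 20, 19 of them upward, where 0.43% of all events passed (0.389% upward and 0.0406% downward). The KIN17(M107I) libraries lay wholly above the control in 224 members and wholly below in 10, where the share of all events was 6.68% above and 2.52% below. The median change was 1.02 points, beside 0.00647 over all events. The limma count was 1 without KIN17(M107I) replicate 1 or control replicate 2, and 2 without KIN17(M107I) replicate 2, KIN17(K23N) replicate 2, PRCC(I371F) replicate 1, PRCC(null) replicate 2 or PRCC(null) replicate 3. It was 7 without PRCC(I371F) replicate 2 and 11 without control replicate 1. The rule passed 36 members without KIN17(M107I) replicate 3, 42 without control replicate 1 and 40 without control replicate 3. The libraries of KIN17(M107I) and PRCC(null) are numbered 24 to 29, while the other 3 strains are numbered 1 to 9, so an effect of these sets and of the allele cannot be told apart in either comparison with the control.

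The 4 members called in KIN17(M107I) were in dab-1, pdzd-8 and wwp-1 and at chrIV:1929251-1929438. In dab-1, which encodes a Disabled-family endocytic adaptor, PSI was 64.3, 66.1 and 59.7% in KIN17(M107I) against 37.4, 23 and 34.7% in the smg-4 control (31.7 points, limma adjusted p = 0.0407). The same member had 69.7, 71.8 and 63.2% in KIN17(K23N), 43.4, 57.1 and 45.1% in PRCC(I371F), and 58.8, 57.3 and 61.4% in PRCC(null). None of the 12 mutant libraries reached down to the control range in dab-1, and its changes of 36.5 points in KIN17(K23N) (adjusted p = 0.00402) and 27.5 in PRCC(null) (adjusted p = 0.0275) were also called. In wwp-1, a HECT-type E3 ubiquitin ligase, PSI was 33.3, 38.0 and 31.3% in KIN17(M107I) against 12.6, 8.78 and 13.9% in the smg-4 control (22.4 points, adjusted p = 0.0216). The KIN17(K23N) libraries of wwp-1 had 41.5, 44.4 and 33.1% (27.9 points, adjusted p = 0.00312). The call of wwp-1 in KIN17(M107I) was lost without KIN17(M107I) replicate 1 or 2 or control replicate 2 (adjusted p = 0.0687, 0.0658 and 0.0564), and that of dab-1 in 11 of 15 fits, with an adjusted p of up to 0.126 without KIN17(M107I) replicate 1.

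The member at chrIV:1929251-1929438 was called by limma in each of the 4 mutant strains. Its PSI was 25, 39.1 and 35.3% in KIN17(K23N), 44.1, 60.5 and 43.6% in KIN17(M107I), 33.3, 60 and 10% in PRCC(I371F), and 33.3, 50 and 36.7% in PRCC(null), and it was read as 0 in all 3 libraries of the smg-4 control. The upstream site was thus scored in 12 of 12 mutant libraries and in no control library. The adjusted p was 0.00312 in KIN17(K23N) and 0.00389 in KIN17(M107I), and it was 0.00443 in PRCC(I371F) and 0.00236 in PRCC(null). The comparisons share their control libraries, and PRCC(I371F) did not pass the 9-pair rule here because its lowest pairwise difference was 10 points. Without each library in turn, the adjusted p was at most 0.0175 in KIN17(K23N) and 0.0156 in KIN17(M107I), and at most 0.0218 in PRCC(I371F) and 0.0122 in PRCC(null). On untransformed PSI all 4 calls were lost, with an adjusted p of 0.142 in KIN17(K23N) and 0.0857 in KIN17(M107I), and of 0.362 in PRCC(I371F) and 0.0874 in PRCC(null). The PRCC(I371F) call was also lost with a pseudocount of 0.05 (adjusted p = 0.0578) and with only the 6 libraries compared in the fit (adjusted p = 0.2).

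**Figure D3:**
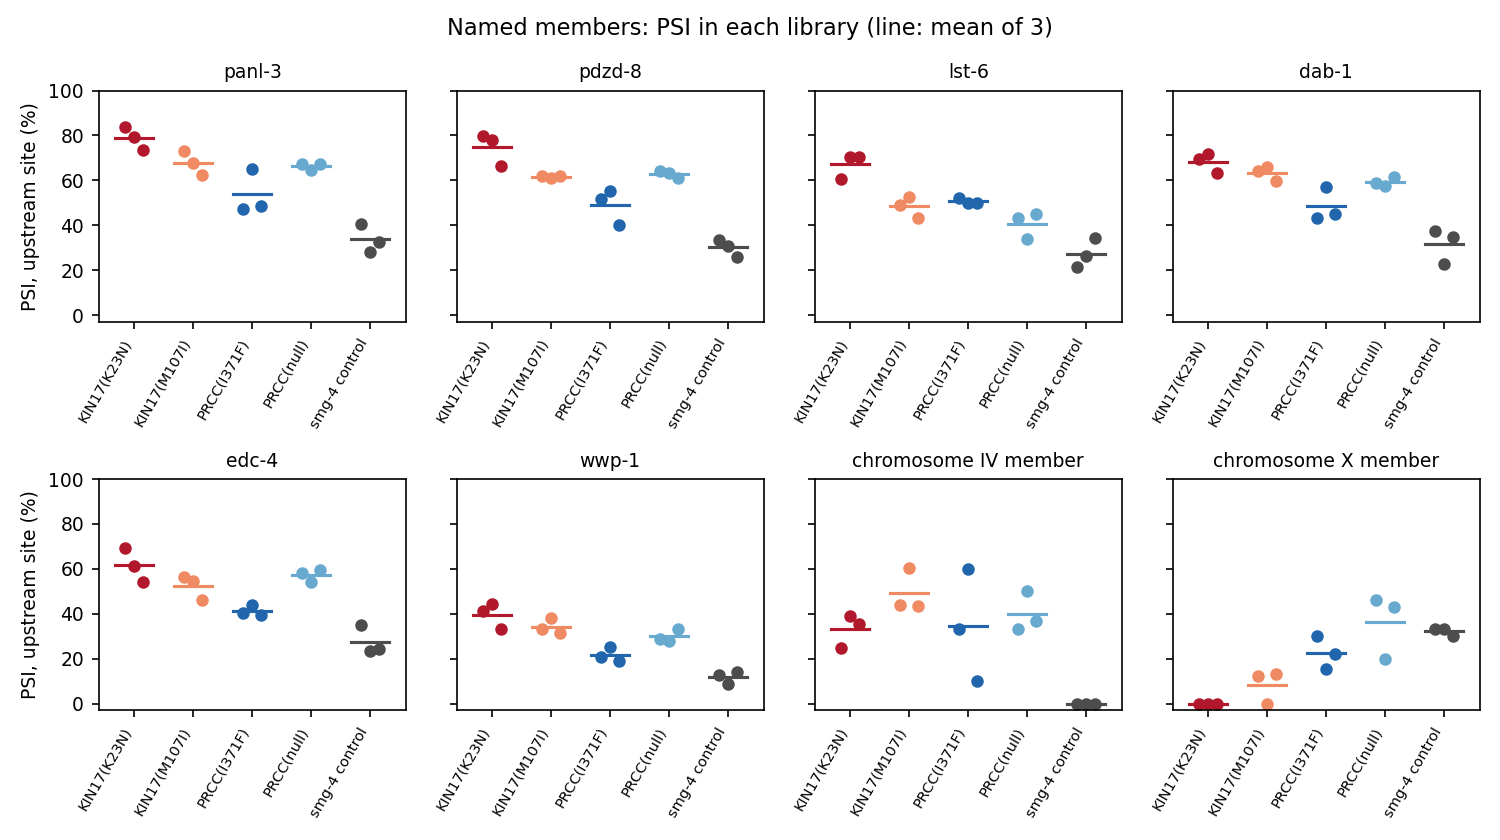
PSI in percent (vertical axes) in each library of 8 members, by strain, with a line at the mean of 3. In panl-3, pdzd-8, dab-1, edc-4 and wwp-1 all mutant libraries lie above the control; the chromosome IV member is at 0 in the control and the chromosome X member at 0 in KIN17(K23N).

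PRCC(I371F) against the smg-4 control gave few changed members. limma called 2, both upward, where it called 0.0649% of all events (0.0487% upward and 0.0162% downward). The rule passed 4, of which 3 were upward, where 0.219% of all events passed (0.138% upward and 0.0811% downward). No member met both criteria. The libraries lay wholly above the control in 115 members and wholly below in 19, where the share of all events was 4.42% above and 3.5% below. The median change was 0.459 points, beside 0 over all events. The limma count was 4 without control replicate 3. The rule passed 8 members without PRCC(I371F) replicate 1 or 2 or control replicate 3, and 11 without PRCC(I371F) replicate 3 or control replicate 1 or 2. The member that passed the rule downward lies at chrIII:10407087-10407291. Its PSI was 80.0, 42.9 and 60% in PRCC(I371F), against 100% in all 3 libraries of the smg-4 control and also of KIN17(K23N), a change of -39.0 points (limma adjusted p = 0.0538). It was 75, 100 and 75% in KIN17(M107I), and 85.7, 92.3 and 93.3% in PRCC(null), whose libraries all lay below the control. Neither of these changes was called (limma adjusted p = 0.384 and 0.192).

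PRCC(null) against the smg-4 control gave 21 members called by limma, all upward, where it called 0.349% of all events (0.325% upward and 0.0243% downward). The rule passed 20, 19 of them upward, where 0.544% of all events passed (0.446% upward and 0.0974% downward), and 15 members met both criteria. The libraries lay wholly above the control in 273 members and wholly below in 16, where the share of all events was 9.93% above and 3.94% below. The median change was 1.40 points, beside 0.0588 over all events. The limma count was 8 with only the 6 libraries compared in the fit. It fell to 2 without PRCC(null) replicate 3, 6 without replicate 2 and 10 without replicate 1. It was 3 without control replicate 2 and 6 without control replicate 3, and 11 to 13 without KIN17(K23N) replicate 1 or 2 or KIN17(M107I) replicate 1 or 2, which enter the fit through the shared spread. The rule passed 33 members without PRCC(null) replicate 1, 34 without replicate 2, 50 without control replicate 1 and 35 without control replicate 3.

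Besides panl-3, pdzd-8, dab-1, ntl-4 and the chromosome IV member just described, the members with the largest changes in PRCC(null) that met both criteria were in edc-4 and znf-598 and at chrIV:374458-374637. In edc-4, whose human homolog EDC4 is a scaffold of mRNA decapping, PSI was 58.3, 54.1 and 59.7% in PRCC(null) against 35.0, 23.4 and 24.5% in the smg-4 control (29.7 points, limma adjusted p = 0.0158). In KIN17(K23N) the same member had 69.3, 61.3 and 54.2% (34.0 points, adjusted p = 0.00416). In znf-598, whose human homolog is an E3 ubiquitin ligase that acts on collided ribosomes, PSI was 57.1, 60.9 and 62.6% in PRCC(null) against 38.1, 34.3 and 32.7% in the smg-4 control (25.2 points, adjusted p = 0.0243). The member at chrIV:374458-374637 had 62.5, 70.8 and 59.8% in PRCC(null) against 38.1, 31.8 and 42.9% in the smg-4 control (26.8 points, adjusted p = 0.043). None of these 3 groups overlapped the control. The PRCC(null) call of edc-4 was lost without PRCC(null) replicate 3 or control replicate 2 or 3 (adjusted p = 0.0608, 0.0572 and 0.058), and that of znf-598 also without PRCC(null) replicate 2 (adjusted p = 0.0609 to 0.0765 in these 4 fits). For dab-1 it was lost in 5 of 15 fits (adjusted p of up to 0.0858 without PRCC(null) replicate 3). At chrIV:374458-374637 it was lost in 13 of 15 (up to 0.137 without control replicate 2).

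The rule also passed 1 member downward in PRCC(null), at chrV:6728964-6729151. Its PSI was 33.3, 33.3 and 12.5% in PRCC(null) against 61.9, 56.2 and 83.3% in the smg-4 control, and limma did not call it (-40.8 points, adjusted p = 0.584). Its libraries spread widely in other strains, with 0, 80.0 and 25% in KIN17(K23N).

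A few members with intermediate PSI varied little. At chrIII:12872858-12873917 all 15 libraries lay between 63.9 and 69.1%, the narrowest range of the members with a mean PSI of 25 to 75%. At chrIII:473915-474513 they lay between 53.0 and 61.7%, and at chrX:7880101-7880291 between 58.2 and 66.6%. The KIN17(K23N) changes of these 3 members were 0.878, 2.77 and -0.718 points, each smaller than the SD of the 3 control libraries.

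Across strains, 100 members were called upward by limma in at least 1 mutant strain, which is 9.25% of the members beside 1.63% of all events. Of these, 79 were called in 1 strain, 18 in 2, 2 in 3 and 1 in all 4, where 165, 28, 7 and 1 of all events were. By the rule, 70 members passed upward in at least 1 strain, 6.48% beside 1.44% of all events. Of these, 44 passed in 1 strain, 18 in 2, 8 in 3 and 0 in all 4, where 119, 36, 21 and 1 of all events did. Since the 4 comparisons use the same control libraries, these counts are not independent of one another. The 98 members called upward in KIN17(K23N) had a median PSI of 61.0 ± 3.57% there and 50.4 ± 2.19% in KIN17(M107I). It was 43.2 ± 3.83% in PRCC(I371F) and 52.0 ± 0.970% in PRCC(null), against 33.5 ± 4.99% in the smg-4 control (mean of 3 library medians ± SD, n = 3). The values of KIN17(K23N) and of the control chose these members, so their distance is a description. The other 3 strains entered the choice through the spread of the shared fit, and since the control was chosen as the low end, their position above it is partly set by the choice.

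In direct comparisons of mutant strains, the differences do not involve the control libraries, which enter only the spread of the shared fit. KIN17(K23N) and PRCC(I371F) share the library numbers 1 to 9. limma called 16 members between them, 15 with more upstream use in KIN17(K23N) and 1 with less, where it called 0.292% of all events (0.252% in the first direction and 0.0406% in the second). The rule passed 17, where 0.406% of all events passed. The KIN17(K23N) libraries lay wholly above those of PRCC(I371F) in 284 members and wholly below in 22, where the share of all events was 9.71% above and 2.58% below. The limma count was 0 without KIN17(K23N) replicate 1 or 2, 2 without PRCC(I371F) replicate 1, 3 without PRCC(I371F) replicate 3 and 10 without PRCC(null) replicate 2, and it was 20 without control replicate 2 and 11 without control replicate 3. With only the 6 libraries compared in the fit it was 8. The largest called difference was at chrIII:10407087-10407291 (39.0 points, adjusted p = 0.035), where KIN17(K23N) and the smg-4 control were both at 100% in all libraries. This is therefore the same fall in PRCC(I371F) as against the control, with the same unadjusted p (limma, 0.000227). Against the control it was not called (adjusted p = 0.0538). At chrV:19121833-19122023, PSI was 86.6, 86.5 and 73.6% in KIN17(K23N) against 49.6, 55.1 and 54.3% in PRCC(I371F) (29.2 points, adjusted p = 0.0415). At chrI:536241-536427 it was 66.9, 63.4 and 52.5% in KIN17(K23N) against 25.6, 36.8 and 34.2% in PRCC(I371F) (28.7 points, adjusted p = 0.0266). At chrIII:4253831-4257750 it was 77.8, 77.8 and 81.1% in KIN17(K23N) against 45.8, 64.3 and 40.0% in PRCC(I371F) (28.8 points, adjusted p = 0.0416). These last 3 members did not overlap between the strains, and in each the PRCC(I371F) libraries reached into the range of the smg-4 control. Each of these 4 calls was lost in 4 to 12 of the 15 fits that leave out a library, with an adjusted p of up to 0.168 on chromosome V without KIN17(K23N) replicate 1. The differences in panl-3 (25.2 points, adjusted p = 0.047) and pdzd-8 (25.6 points, adjusted p = 0.033) were called here as well.

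KIN17(M107I) and PRCC(null) share the library numbers 24 to 29. limma called 0 members between them, where it called 0.0243% of all events, with 45 members (4.16%) at an unadjusted p under 0.05, 16 of these upward, beside 7.71% of all events at that p, and 2 passing the rule, which 0.227% of all events passed. The KIN17(M107I) libraries lay wholly above those of PRCC(null) in 28 members and wholly below in 85, where the share of all events was 3.92% above and 6.01% below. The median difference was -0.142 points.

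The alleles of each gene were also compared. KIN17(M107I) lay wholly below KIN17(K23N) in 189 members and wholly above in 23, where the share of all events was 6.43% below and 2.52% above, and the median difference was -0.823 points. limma called 0 of them and 0% of all events, with 139 members (12.9%) at an unadjusted p under 0.05, 24 of these upward, beside 6.91% of all events, and the rule passed 4, where 0.178% of all events passed. PRCC(null) lay wholly above PRCC(I371F) in 174 members and wholly below in 30, where the share of all events was 8.29% above and 3.03% below, and the median difference was 0.810 points. Here limma also called 0 members, where it called 0.0162% of all events, with 119 (11%) at an unadjusted p under 0.05, 100 of these upward, beside 8.65% of all events, and the rule passed 3, where 0.219% of all events passed. Both allele pairs cross the 2 sets of library numbers. The KIN17 strains also carried different unc-73 alleles, whose effect cannot be told apart from that of the KIN17 alleles.

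Changed members were found at intermediate levels. Of the 335 members with a mean PSI of 25 to 75% over the 15 libraries, limma called 88 in KIN17(K23N), all upward (26.3%), and their median change there was 18 points. It called 9 of 198 members at 5 to 25%, 2 of 99 at 75 to 95%, and 0 of the 257 under 5% and the 192 over 95%, where a change of over 20 points is hardly possible. A change itself moves this mean. By mean PSI in the smg-4 control, which also enters the change, limma called 72 of 315 members at 25 to 75% (22.9%), 23 of 187 at 5 to 25% (12.3%), 4 of 309 under 5% (1.29%), and 0 of 75 at 75 to 95% and 0 of 195 over 95%. These counts by level are a description. The share of all events at the same level is not given here, so they do not set the members apart from other events at that level. The median changes at 25 to 75% were 10.5 points in KIN17(M107I), and in the PRCC strains 4.82 in PRCC(I371F) and 10.5 in PRCC(null). In this class the median PSI per library was 60, 60 and 54.5% in KIN17(K23N) against 41.2, 35.3 and 40.4% in the smg-4 control.

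**Figure D4:**
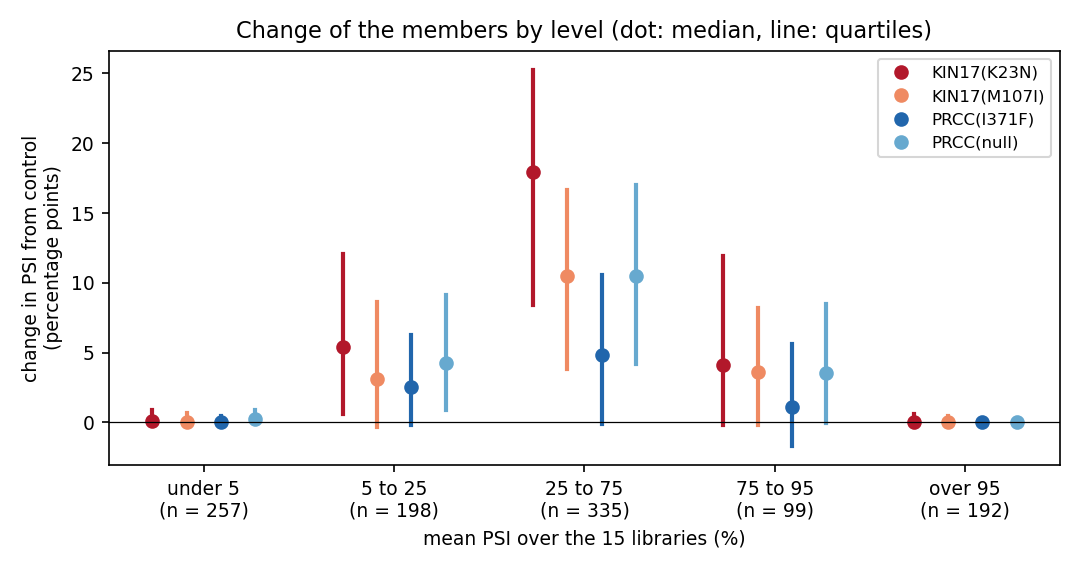
Change in PSI from the smg-4 control in percentage points (dots: medians, lines: middle 50% of members) for the 4 mutant strains, by the member’s mean PSI over the 15 libraries. Medians are near 0 at both ends and highest at 25 to 75%, with 18 points in KIN17(K23N).

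The members called in KIN17(K23N) were spread over all chromosomes and intron lengths. In KIN17(K23N), limma called 24 of 203 members on chromosome I (11.8%), 19 of 171 on II (11.1%), 19 of 210 on III (9.05%), 14 of 187 on IV (7.49%) and 15 of 167 on V (8.98%). On X it called 8 of 143 members (5.59%), 7 upward and 1 downward. The share of all events called was 2.14% on I, 1.65% on II, 1.64% on III, 1.38% on IV, 1.36% on V and 1.08% on X. The intron to the upstream site was 58 nt long in the median member (44 to 354 nt for the middle 50%), and 634 members had an intron under 100 nt. Of these, 55 were called in KIN17(K23N) (8.68%), beside 44 of the 447 with a longer intron (9.84%), where 1.52 and 1.67% of all events were called. By strand, 53 of 536 members on the plus strand and 46 of 545 on the minus strand were called in KIN17(K23N), beside 1.64 and 1.52% of all events. The strands are not described here for the other strains. Some members shared a pair of sites through different 5’ sites, so that the 1081 members held 1048 distinct pairs. A further alternative 3’ site for the same 5’ site was seen in 236 members.

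Among distances, the share of events called in KIN17(K23N) was 9.16% at 6 nt and 6.08% at 9 nt (53 of 871). It was 0.101% at 1 nt, 0% at 3 nt and at 5 nt, 1.03% at 7 nt, 1.16% at 8 nt, 2.46% at 12 nt and 1.93% at 15 nt. Over the multiples of 3 other than 6 it was 2.27%, and over the distances that are not a multiple of 3 it was 0.317%. In PRCC(null) the share was 1.94% at 6 nt and 0.459% at 9 nt. These are shares called by limma. The share that passed the rule was 5.92% at 6 nt and 4.94% at 9 nt in KIN17(K23N), and 1.85% at 6 nt and 1.26% at 9 nt in PRCC(null). The distances also differed in level: the median control PSI was 30.7% at 6 nt and 23.5% at 9 nt, but 98.3% at 3 nt and 9.01% at 7 nt, so that most events at 3 nt had no room for a change of 20 points upward. These shares are a description, since the distances were not compared by a test.

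**Figure D5:**
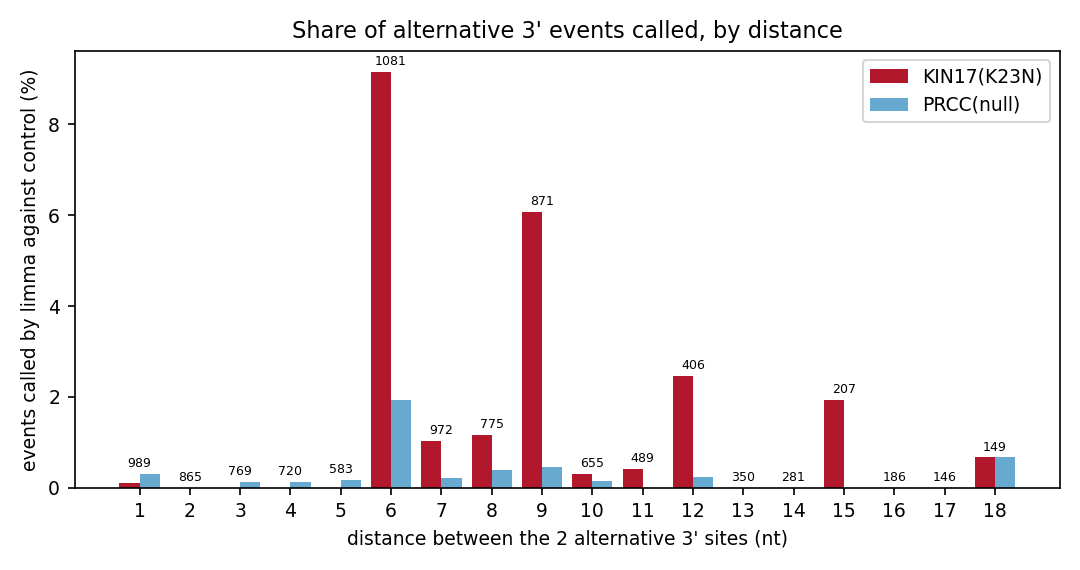
Share of alternative 3’ events called by limma against the smg-4 control (vertical axis, percent) by the distance between both sites in nt, for KIN17(K23N) and PRCC(null), with the number of events above each pair of bars. The share in KIN17(K23N) is 9.16% at 6 nt and 6.08% at 9 nt.

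The supplementary list of the study holds 54 of the members, in 51 genes, and gave the only gene names, so that other members are given by position. Of the 52 listed for KIN17(K23N), limma called 50. These members were chosen on the same libraries, so their counts are not independent evidence. The further members described next were chosen from this list after their values were seen, and are ordered by the known role of the product. In ain-2, a GW182-family protein of the miRNA silencing complex, mean PSI was 61.6% in KIN17(K23N) against 31.1% in the smg-4 control. In smg-8, a factor of nonsense-mediated decay, it was 84.1% in KIN17(K23N) against 55.4% in the smg-4 control, and in eif-3.G, a subunit of translation initiation factor eIF3, it was 44.5% against 22.9%. In usp-5, a ubiquitin-specific protease, it was 64.9% in KIN17(K23N) against 35.3% in the smg-4 control, and in cul-2, the scaffold of a cullin ubiquitin ligase, 57.6% against 34.5%. In unc-11, the AP180 clathrin adaptor, it was 48.5% in KIN17(K23N) against 12.5% in the smg-4 control, and in unc-57, the endophilin of synaptic vesicle endocytosis, 74.6% against 44.7%. In cdk-12, a kinase of the RNA polymerase II tail, it was 88.8% in KIN17(K23N) against 61.4% in the smg-4 control. All 8 were called in KIN17(K23N). daf-16, the FOXO transcription factor of insulin signaling, was not called in KIN17(K23N), at 15.8 points (limma adjusted p = 0.0817), but was called in PRCC(null), at 20.3 points (adjusted p = 0.0466). Of the 8, usp-5, smg-8 and cdk-12 were also called in PRCC(null) (adjusted p = 0.0275, 0.0297 and 0.0476). The mean PSI of daf-16 was 47.8% in KIN17(K23N) and 52.4% in PRCC(null), against 32% in the smg-4 control.

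In 3 genes the list held 2 members each. In dab-1 the second member had a mean PSI of 66.4% in KIN17(K23N) against 35.9% in the smg-4 control, beside 68.3% against 31.7% in the first. In edc-4 the second member had 75.5% in KIN17(K23N) against 49.3% in the smg-4 control, beside 61.6% against 27.6% in the first. In F28B3.1 the members had 41.6% in KIN17(K23N) against 14.7% in the smg-4 control, and 35.9% against 4.0%. All 6 were called upward in KIN17(K23N). Members of 1 gene can share reads or transcripts and were not counted as replicates.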

How the data were processed

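Poly(A) RNA of 15 libraries was sequenced in paired 75 nt reads. Reads were mapped by the authors to the WS220/ce10 genome with a version of STAR changed to accept UU/AG introns. Introns needed 5 or more reads summed across the samples, alternative ends could be up to 50 nt apart, and PSI came from junctionCounts. The submitters’ processing notes also name cutadapt, Bowtie2 and SAMtools; versions are not given in the sources used here. The deposited tables hold, for each form of an event, a score that is the PSI as a fraction times 1000. Scores just inside the ends of this scale were read as 0 or 100%, which is an assumption. No read counts are given, so depth is unknown and no interval was computed.

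Members were found by coordinates. The fit used limma 3.58.1 in R 4.3.3 (trend and robust options) on log2((PSI + 0.01)/(1 − PSI + 0.01)) of the 12325 alternative 3’ events with a PSI in all 15 libraries, over all 15 libraries, with Benjamini-Hochberg adjustment over all events, and was tested on simulated data. Every adjusted p comes from this fit unless another one is named. The 9-pair rule is that of the study, without its inspection in the genome browser.

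The text names, by rule, the 8 members with the largest change per strain among those that met both criteria, up to 3 falls per strain, up to 4 called differences per direct comparison, members that passed the 9-pair rule in all mutant strains (0), members in the genes the study assayed by RT-PCR, and the 3 least variable members of intermediate PSI. Gene names came from the site list of the study and RefSeq (WBcel235) locus tags, with 52 of 54 listed members matched. A ce10 annotation was not used here. The members and the lists were chosen with earlier results of these data known, and the classes by mean PSI over the 15 libraries after seeing the data. The tables of annotated event classes were not used. Alternatives were other thresholds, pseudocounts, filters and fits, and leaving out each library.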

Additional observations from a re-analysis of the deposited data

How the results depend on the processing

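The directions of the median changes, and of the changes that led to a member being named by rule outside the 3 least variable ones, were the same under every alternative run. Members added from the list of the study were not run under the alternatives. With a smallest pairwise difference over 10 points, the rule passed 111 members in KIN17(K23N), 40 in KIN17(M107I) and 40 in PRCC(null). With over 20 points it passed 32 in KIN17(K23N) and 9 in KIN17(M107I), and only 1 for PRCC(I371F) besides 4 for PRCC(null). Without members at exactly 0 or 100% in any library it passed 1 in PRCC(I371F). Leaving out each library in turn, the rule passed 68 to 126, 25 to 42, 8 to 11 and 25 to 50 members in these 4 strains, where fewer pairs had to meet it.

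With only the 6 libraries compared in the fit, 15 of the 25 called changes of named members were lost, and limma called 22 members in KIN17(K23N), 8 in PRCC(null), 8 between KIN17(K23N) and PRCC(I371F) and 2 between KIN17(M107I) and KIN17(K23N). In KIN17(M107I), it called 9 with a pseudocount of 0.05, 11 on untransformed PSI, 14 with plain empirical Bayes, 26 among events with a mean PSI of 5 to 95% and 33 among events never at 0 or 100%. In PRCC(I371F) it called 1 with a pseudocount of 0.05, 1 on untransformed PSI and 5 with plain empirical Bayes. In PRCC(null) it called 36 with no threshold on the mean difference, 36 at a mean PSI of 5 to 95% and 39 never at 0 or 100%. Between KIN17(K23N) and PRCC(I371F) it called 10 with a pseudocount of 0.001, 40 at a mean PSI of 5 to 95% and 46 never at 0 or 100%. Between KIN17(M107I) and KIN17(K23N) it called 1 on untransformed PSI. The filters adjust over fewer events; the cause of the other shifts was not tested. Leaving out each library, limma called 40 to about 1.1e+02 members in KIN17(K23N), the highest being 8 more than the 99 with all libraries, and 1 to 11 in KIN17(M107I). It called 2 to 4 for PRCC(I371F), 2 to 23 for PRCC(null), 0 to 20 between KIN17(K23N) and PRCC(I371F), 0 to 1 between the alleles of each gene, and 0 between KIN17(M107I) and PRCC(null).

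Among members with a mean PSI of 5 to 95%, the median changes were 10.9 points in KIN17(K23N) and 6.61 in KIN17(M107I), with 3.34 for PRCC(I371F) and 7.12 for PRCC(null). With the median of the 3 libraries per strain, it was 1.37 points in KIN17(K23N). Leaving out each library they were 1.63 to 1.96, 0.747 to 1.28, 0.192 to 0.681 and 1.12 to 1.70 points.

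The small changes of the least variable members changed sign when 1 library was left out. At chrIII:12872858-12873917 they were -0.477 points in KIN17(K23N) without its replicate 1 (highest 1.80), -0.0503 in KIN17(M107I) without control replicate 3 (highest 1.68), and -0.148, -0.00561 and -0.691 in PRCC(I371F) without its replicate 1, control replicate 1 and control replicate 3 (highest 1.04). At chrIII:473915-474513 the change in PRCC(null) was -0.254 without control replicate 1 (highest 2.98), and at chrX:7880101-7880291 that in KIN17(K23N) was 0.267 without control replicate 1 (lowest -1.97).

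No paired analysis was possible because the library numbers are unique to each library and the replicate numbers follow accession order only. Depth per event limits every value here and could not be read from the tables.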
